A study of Mus musculus with 21 samples.

Results

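The DNA methylation and chromatin regulators described here are 10 genes, Dnmt1, Uhrf1, Dnmt3a, Dnmt3b, Tet1, Tet2, Tet3, Ezh2, Asxl1 and Kdm6b, taken by symbol from the expression tables of sorted hematopoietic stem cells (HSC). They are 10 of 13747 genes listed in either HSC table, all 10 are in both tables, and all 10 passed the filter on low values in every comparison. Expression was measured by RNA sequencing in 3 groups of 3 HSC libraries, which the labels number as biological replicates. The sedentary group and the physically active group came from MMTV-PyMT mice at week 12. The transplant group came from sedentary MMTV-PyMT mice that had received cells of a physically active mouse, and its time is given as week 14. All groups thus carried the MMTV-PyMT transgene, a viral promoter that drives a polyomavirus oncoprotein in mammary epithelium. The form of activity, the sort gate, the kind of cells transplanted and any treatment of the recipients are not given in the sources used here. HSC of mice that received cells of a sedentary donor were not analysed here, so the transplantation, the later week and the activity of the donor cannot be told apart. The comparisons ask whether HSC of the transplant group held these regulators at the levels of active or of sedentary mice. Whether those HSC came from the donor or from the host was not tested.

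DNA methylation of cytosines in CpG pairs is copied to the new strand after replication by Dnmt1, which Uhrf1 brings to hemimethylated sites, and is laid down anew by Dnmt3a and Dnmt3b. Tet1, Tet2 and Tet3 oxidize methylcytosine and so start its removal. Ezh2 is the catalytic subunit of Polycomb repressive complex 2 (PRC2), which methylates histone H3 at repressed genes, Kdm6b is a demethylase of the same histone mark, and Asxl1 is a partner of the deubiquitinase Bap1 that acts on Polycomb-marked histone H2A. Dnmt3a, Tet2 and Asxl1 are known in this tissue as genes whose loss or mutation lets blood stem cell clones expand.

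The library labelled active replicate 2 stood apart before any comparison. It has a column in both HSC tables, but whole reads recovered from the columns differed at 13105 of 13399 shared genes, against 4 genes each for active replicates 1 and 3. Among 12276 genes with a mean of at least 10 normalized counts, 18.4% differed by more than 2-fold between the columns. Of the regulators, 2 of 10 did so: Dnmt3b was 4.53-fold and Tet1 4.99-fold higher in the column of the transplant table than in that of the sedentary table. The headers of the columns carry the same library number but different names, P3 in the sedentary table and P2 in the transplant table. Which column holds the labelled library was not settled here, so the active values of the regulators are given below with both columns. Recovered depth was 58500940 to 72417315 reads in the replicate 3 libraries and 16406889 to 24574563 reads in the others, and the regulator with the fewest reads, Tet1, had 73 to 1888 reads per column.

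The HSC label was checked against marker genes. Kit, the stem cell factor receptor, was at 5112 to 7261 normalized counts in every column, and no column stood apart. Procr, a marker of long-term HSC, was at 31.1 to 120 normalized counts, and Fgd5, another such marker, at 2.8 to 113. Mpo, the myeloperoxidase of granulocyte precursors, was at 52331 to 75938 normalized counts in sedentary libraries and at 182630 to 240602 in transplant libraries. In active replicates 1 and 3 it was at 163138 and 99017, and in the columns of replicate 2 at 197712 (sedentary table) and 52641 (transplant table). The B cell genes Cd79a, Pax5 and Ms4a1 and the T cell genes Cd3e, Cd3d, Cd3g, Cd4, Cd8a and Trbc2 are not among the genes of the tables, while Cd79b, of B cells, was at 60.6 to 250.2 normalized counts and Lck, of T cells, at 70.3 to 287. In such bulk libraries a smaller number of cells of a type and less RNA per cell cannot be told apart.

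The promoter of Dnmt3b, the regulator on which the results turn, is shown with a promoter window of its paralog Dnmt3a, whose levels overlapped between all groups. The sequences are the 250 bases before a transcription start in RefSeq (GRCm38.p6), with CpG pairs in capitals. The Dnmt3b window lies at chr2:153649199-153649448 on the plus strand, next to the gene at chr2:153649450-153687730, and the Dnmt3a window at chr12:3806730-3806979 on the plus strand, within the gene annotated at chr12:3806007-3914443.
Dnmt3b: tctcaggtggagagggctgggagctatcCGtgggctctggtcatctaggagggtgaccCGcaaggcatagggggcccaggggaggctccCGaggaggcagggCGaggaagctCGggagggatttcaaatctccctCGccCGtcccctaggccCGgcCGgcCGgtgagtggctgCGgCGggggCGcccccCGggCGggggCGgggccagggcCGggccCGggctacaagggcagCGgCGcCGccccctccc
Dnmt3a: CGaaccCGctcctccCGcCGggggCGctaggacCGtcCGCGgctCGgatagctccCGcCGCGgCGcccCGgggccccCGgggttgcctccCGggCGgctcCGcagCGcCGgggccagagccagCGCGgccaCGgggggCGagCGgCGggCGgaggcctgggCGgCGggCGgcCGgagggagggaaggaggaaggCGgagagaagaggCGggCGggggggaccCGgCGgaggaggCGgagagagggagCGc
The Dnmt3b window held 21 CpG pairs and 75.2% G and C, and 85.2% of 32851 RefSeq windows of the same length held no more CpG pairs, against a median of 6. The Dnmt3a window shown held 38 CpG pairs and 82.4% G and C. Other RefSeq windows of Dnmt3a held 40 and 15 CpG pairs, the latter fewer than the Dnmt3b window. The Dnmt3b window held 3 GC boxes (GGGCGG) and the Dnmt3a window shown 5, a motif that 32.7% of windows hold on either strand. The other Dnmt3a windows held 4 and 1. An E2F motif (TTTGGCGC, TTTGCCGC, TTTCGCGC or TTTCCCGC on either strand, 1.86% of windows) was in 1 window each of Dnmt1 and Uhrf1 and in no window of the other regulators with an entry. A promoter entry was found for 9 of 10 regulators, all but Kdm6b, and a match of letters is not a measured binding site.

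Per length and depth, the maintenance genes stood highest. In sedentary HSC, Dnmt1 was at 120 ± 13.5 (SD, n = 3) RPKM, recovered reads per kilobase of annotated exon scaled to depth, and Uhrf1 at 89.6 ± 2.0. Asxl1 at 25.3 ± 3.4 and Ezh2 at 24.6 ± 1.6 did not differ beyond their spread, and Dnmt3b followed at 21.6 ± 2.2. Tet3 at 9.79 ± 2.1, Dnmt3a at 7.13 ± 1.2, Kdm6b at 6.86 ± 1.4 and Tet2 at 5.42 ± 1.5 followed, and the library ranges of neighbours in this order overlapped. Tet1 was lowest at 1.08 ± 0.27. These sedentary levels put the main copying enzyme far above the de novo enzymes. In transplant HSC the order was the same except at 2 places. Dnmt3b, at 7.88 ± 0.39, stood below Tet3, at 9.11 ± 0.85. Kdm6b, at 5.78 ± 0.32, stood below Tet2, at 6.30 ± 0.51, but their library ranges overlapped. In active replicates 1 and 3 Kdm6b, at a mean of 7.57, also stood below Tet2, at 7.63. Exon length here is the union of all annotated isoforms, which lowers the value of genes with long alternative exons.

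**Figure D1:**
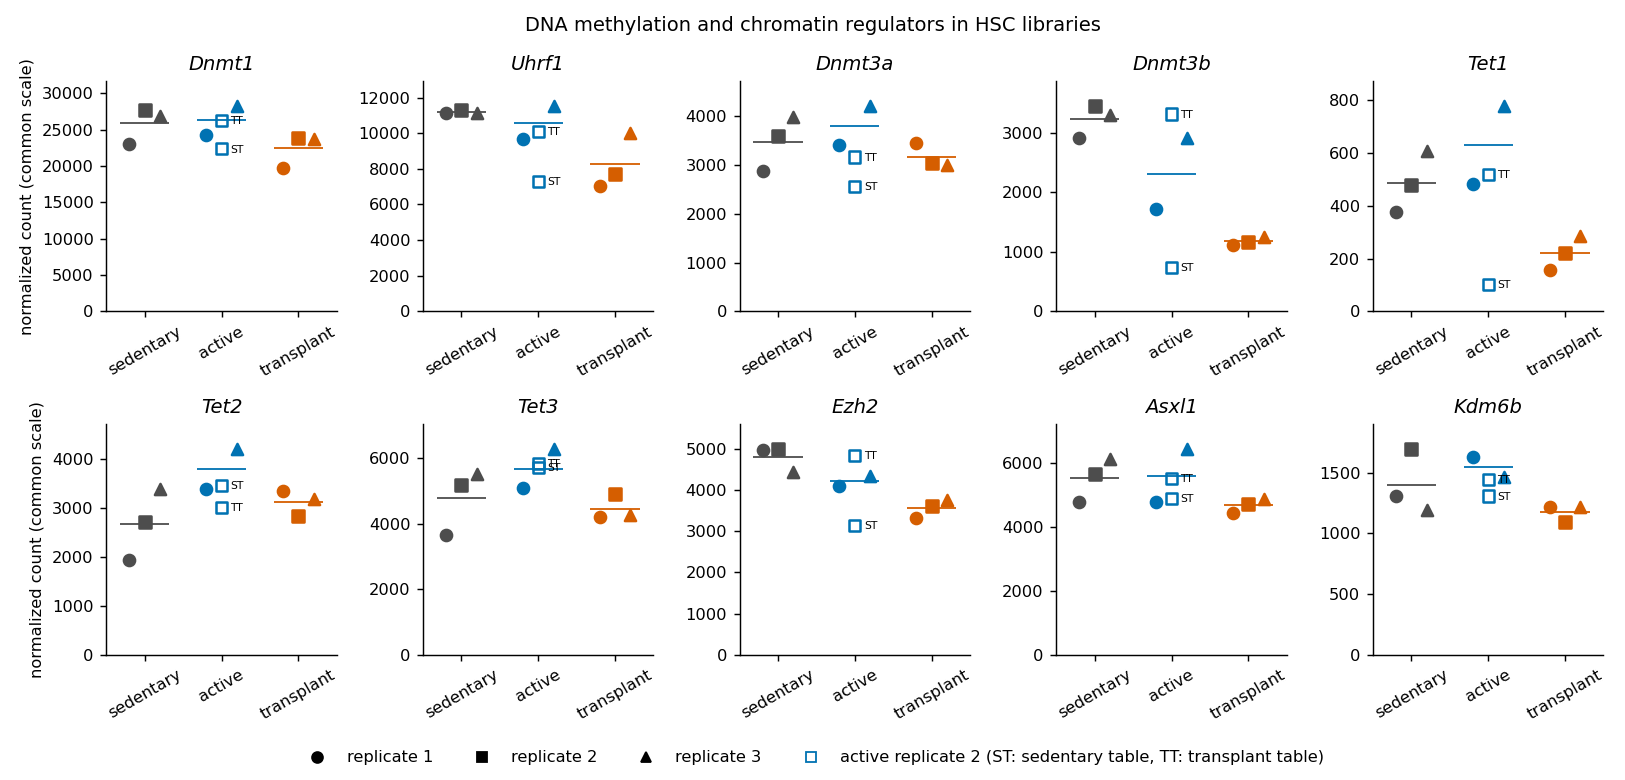
Normalized counts of each regulator (vertical axes, common scale, from 0) in every HSC library, by group, with bars at the group mean. The active bar is the mean of replicates 1 and 3 only, and open squares are the 2 columns of active replicate 2. The 3 transplant libraries of Dnmt3b, at 1115 to 1251, lie below all sedentary libraries, at 2916 to 3458, while Dnmt3a overlaps between groups.

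Between active and sedentary mice, none of the 10 regulators passed the test. With limma and Benjamini-Hochberg adjustment over 13513 genes, 0 genes in all were called (0.0%), although 1252 genes had an unadjusted p under 0.05 (9.27%). No regulator was among these, and neither edgeR, with 0 genes called, nor DESeq2, with 257 genes (1.9%), called a regulator. In the authors' deposited table, where 1.65% of genes had an adjusted p under 0.05, the lowest value of a regulator was 0.257, for Dnmt3b. The regulators' median log2 fold change was -0.05, beside 0.0037 over all genes. Groups did not overlap for 3 of 10 regulators on the scale of that table, Dnmt3b and Ezh2 lower (9.29% of genes) and Tet2 higher (10.4%). On the common scale with the same column of active replicate 2, only Ezh2 stayed without overlap (9.16% of genes lower, 10.4% higher). With the other column, on that scale, the groups overlapped for all 10 regulators. Of all genes, 3.16% were then lower and 3.04% higher without overlap.

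Between transplant and active HSC, all 10 regulators had a negative log2 fold change and none passed the test. limma called 7 of 13633 genes (0.0513%), and 17.8% had an unadjusted p under 0.05, among them 5 regulators: Dnmt3b, Tet1, Tet3, Ezh2 and Kdm6b. The groups did not overlap, with transplant lower, for 6 of 10 regulators (those 5 and Dnmt1) and for 12.1% of all genes. With the other column of active replicate 2, on the common scale, this held for 3 of 10 regulators (Tet2, Tet3 and Kdm6b) and 3.45% of genes, and limma called 1 gene. The regulators' median log2 fold change was -0.33, beside 0.0003 over all genes. DESeq2 on recovered reads called 1107 genes (8.12%), Dnmt3b and Tet1 among them, and edgeR called 1 (0.00734%), which was not a regulator. The count of 7 genes was 79 without active replicate 1 (0.58%, Dnmt3b among them), 22 without transplant replicate 3, 4 without active replicate 3, 2 without transplant replicate 1, and 0 without active replicate 2 or transplant replicate 2. Deviations of same-numbered libraries correlated at 0.10, 0.12 and 0.32 here, but those of active replicate 1 and transplant replicate 2 also at 0.10. With the replicate number as a block limma called 0 genes.

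Between transplant and sedentary HSC, Dnmt3b fell and no other regulator passed the test. This comparison used reads recovered from both tables and did not involve the active libraries. limma called 1553 of 13348 genes (11.6%), 494 of them lower (3.7%), and 1 of 10 regulators was called, a share near that of all genes, so the count is no result about the regulators as a set. At an unadjusted p under 0.05 were 4 of 10 regulators and 31.7% of all genes. The groups did not overlap, with transplant lower, for 4 of 10 regulators (Dnmt3b, Tet1, Ezh2 and Uhrf1) and for 18.4% of all genes. The regulators' median log2 fold change was -0.23, beside -0.0004 over all genes. The count of 1553 genes was 99 with the replicate number as a block, where no regulator passed. It was 237 without sedentary replicate 2, 298 without sedentary replicate 1, 257 without transplant replicate 2 and 481 without transplant replicate 1. Other tests called more: Tet1, Ezh2 and Uhrf1 passed with DESeq2 (23.9% of genes) and with a mean-variance trend (20.6%), Tet1 and Ezh2 with edgeR (19.2%), Tet1 and Uhrf1 without transplant replicate 3 (12.6%), and Tet1 at a mean of at least 10 (15.1%). The comparison shares its transplant libraries with the comparison above, so the negative signs in both are not separate measurements.

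**Figure D2:**
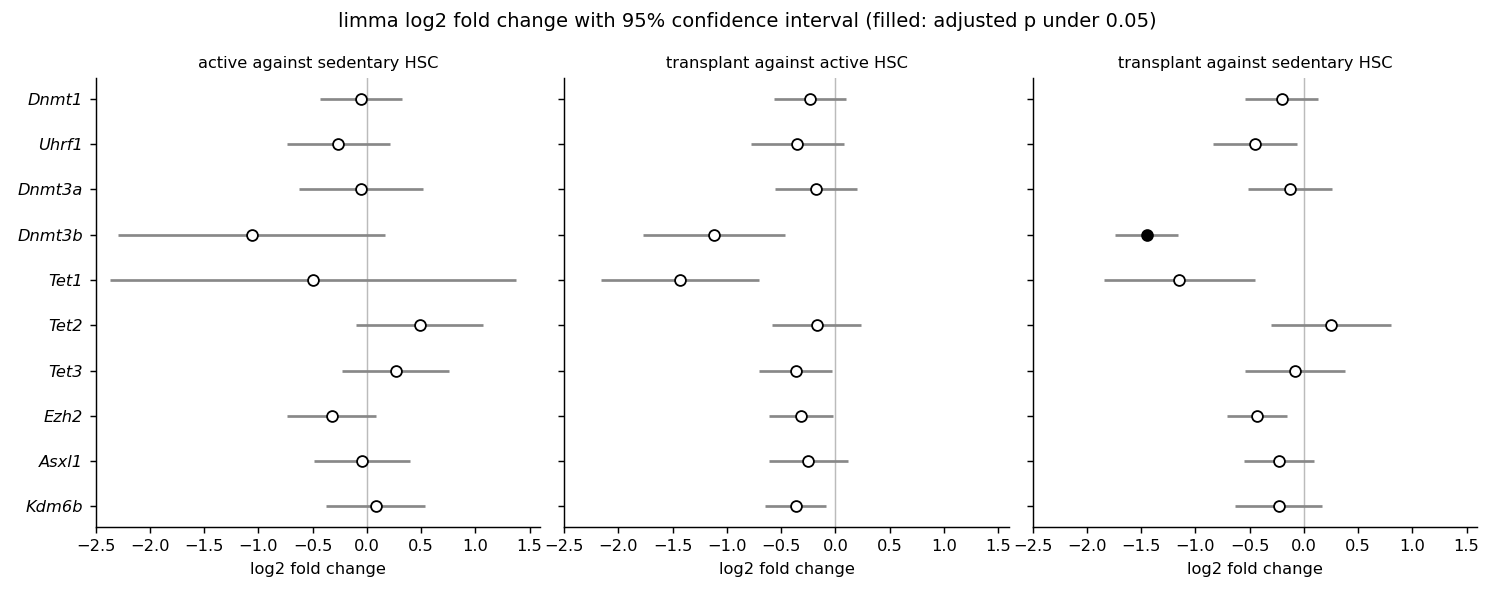
log2 fold change of each regulator (horizontal axis) with its 95% confidence interval from limma, in the 3 comparisons. Filled points have an adjusted p under 0.05, which holds for Dnmt3b between transplant and sedentary HSC at -1.45 and for no other point.

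Dnmt1, the maintenance methyltransferase, was at 23006, 27763 and 26883 normalized counts in sedentary replicates 1 to 3. It was at 24242 and 28300 in active replicates 1 and 3 and at 22358 (sedentary table) and 26236 (transplant table) in the columns of replicate 2. It was at 19752, 23862 and 23711 in transplant libraries. Active and sedentary libraries overlapped, and the transplant libraries lay below the active columns of the transplant table. log2 fold changes were -0.05 (SE 0.15) for active against sedentary, -0.23 (SE 0.13) for transplant against active and -0.21 (SE 0.14) for transplant against sedentary. Their 95% intervals, -0.43 to 0.32, -0.56 to 0.10 and -0.54 to 0.13, each include 0.

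Uhrf1, which recruits Dnmt1 to newly replicated DNA, was at 11138, 11295 and 11143 normalized counts in sedentary libraries, the narrowest spread of any regulator there relative to its mean. It was at 9653 and 11542 in active replicates 1 and 3, and at 7269 or 10084 in replicate 2. Transplant libraries held 7060, 7723 and 10037. All transplant libraries lay below all sedentary ones, and replicate 3, the most deeply sequenced, lay closest to them. The log2 fold change of transplant against sedentary was -0.45 (SE 0.16, 95% interval -0.84 to -0.07, limma adjusted p = 0.115). Without transplant replicate 3 it was -0.60 with an adjusted p of 0.0376. Within replicate 3 alone the difference was -0.15, and within replicates 1 and 2 -0.60.

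Dnmt3a, the main de novo methyltransferase of adult blood stem cells, did not separate the groups. It was at 2876, 3581 and 3971 normalized counts in sedentary libraries and at 3442, 3036 and 2990 in transplant libraries. Active replicates 1 and 3 held 3399 and 4211, and replicate 2 held 2551 or 3160. The transplant libraries all lay within the sedentary range. The transplant against sedentary log2 fold change was -0.13 (SE 0.16), with a 95% interval of -0.51 to 0.25, and active against sedentary it was -0.05, with an interval of -0.63 to 0.52. The estimates for Dnmt3b, -1.45 and -1.06 in the same comparisons, lie outside these intervals. Active against sedentary, however, its own interval of -2.29 to 0.17 overlaps that of Dnmt3a. Its estimate there was -0.53 without active replicate 2 and -0.33 with the other column, both inside the Dnmt3a interval.

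Dnmt3b, the other de novo methyltransferase, known mainly from the early embryo, fell to 36.6% of its sedentary level in transplant HSC, from its log2 fold change. It was at 2916, 3458 and 3309 normalized counts in sedentary libraries and at 1115, 1168 and 1251 in transplant libraries. The groups were far apart and the transplant libraries close together. Means were 3227 ± 280 and 1178 ± 68.5 (SD, n = 3 each). The log2 fold change was -1.45 (SE 0.12, 95% interval -1.74 to -1.16, limma adjusted p = 0.00685, or 0.0507 with the replicate number as a block). It was -1.40 within replicate 3 alone and -1.48 within replicates 1 and 2 (adjusted p = 0.0197, where 14.7% of genes passed).

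In active mice the Dnmt3b libraries did not form a group. Replicate 1 held 1714 normalized counts, replicate 3 held 2917, and replicate 2 held 731 in the sedentary table or 3319 in the transplant table. Replicate 3 lay at the lowest sedentary library, replicate 1 between the sedentary and transplant ranges, and the columns of replicate 2 below every other library and within the sedentary range. Active against sedentary, the log2 fold change was -1.06 (SE 0.50, 95% interval -2.29 to 0.17, limma adjusted p = 0.475). It was -0.33 with the column of the transplant table and -0.53 without active replicate 2. On the common scale the highest active library, at 2917, was not below the lowest sedentary one, at 2916.

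Transplant against active, all 3 transplant libraries held less Dnmt3b than the active columns of that table. The log2 fold change was -1.12 (SE 0.27, 95% interval -1.78 to -0.46), and limma's adjusted p was 0.188. In the authors' deposited table it was -1.17 with an adjusted p of 0.000102, in a table where 7.92% of genes had an adjusted p under 0.05. Without active replicate 1 it was -1.41 with an adjusted p of 0.0433, and without active replicate 2 it was -0.93. With the sedentary table's column of replicate 2 it was -0.39, since that column held less Dnmt3b than any transplant library.

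Tet1, the least abundant of the methylcytosine oxidases here, was at 376, 478 and 610 normalized counts in sedentary libraries. It was at 157, 222 and 286 in transplant libraries. The groups did not overlap, and within each of them replicate 3 was highest. The log2 fold change was -1.15 (SE 0.28, 95% interval -1.85 to -0.45), with a limma adjusted p of 0.0543. It was -1.36 with an adjusted p of 0.0451 without transplant replicate 3. Requiring a mean of 10 normalized counts, with fewer genes tested, gave an adjusted p of 0.0432, and edgeR and DESeq2 gave 0.0161 and 0.000361.

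Tet1 in active libraries was at 481 and 780 normalized counts in replicates 1 and 3, and at 103 or 518 in replicate 2. Apart from the 103 of the sedentary table's column, the lowest value of any column, the active values reached from within the sedentary range to above it. Active against sedentary, the log2 fold change was -0.50 (SE 0.76, 95% interval -2.37 to 1.37) and turned to 0.28 with the other column and to 0.35 without active replicate 2. Transplant against active it was -1.43 (SE 0.29, 95% interval -2.16 to -0.70, limma adjusted p = 0.169), and -0.65 with the sedentary table's column. The authors' deposited table gave -1.43 with an adjusted p of 0.000110.

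Tet2, the oxidase most often mutated in clonal blood growth, was at 1930, 2715 and 3385 normalized counts in sedentary libraries. It was at 3379 and 4200 in active replicates 1 and 3 and at 3456 or 2998 in replicate 2, and at 3333, 2830 and 3179 in transplant libraries. It was the regulator with the largest positive estimate between active and sedentary mice, and sedentary replicate 1 was its lowest library. The log2 fold change was 0.49 (SE 0.24, 95% interval -0.10 to 1.08, limma adjusted p = 0.475), and 0.27 to 0.67 over 16 alternative fits. Transplant against sedentary it was 0.25 (95% interval -0.30 to 0.80) and transplant against active -0.17 (95% interval -0.58 to 0.24). No separation of groups beyond the spread was measured on the common scale, where sedentary replicate 3, at 3385, was above active replicate 1, at 3379.

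Tet3, the most abundant oxidase here per length, was at 3668, 5166 and 5524 normalized counts in sedentary libraries and at 4193, 4905 and 4257 in transplant libraries. Active replicates 1 and 3 held 5078 and 6283, and replicate 2 held 5712 or 5833, the closest agreement between its columns of any regulator. All transplant libraries lay below all active columns and within the sedentary range. Transplant against active the log2 fold change was -0.37 (SE 0.14, 95% interval -0.70 to -0.03, limma adjusted p = 0.265), and transplant against sedentary -0.09 (95% interval -0.55 to 0.38).

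Ezh2, the histone methyltransferase of PRC2, was at 4983, 5011 and 4449 normalized counts in sedentary libraries. It was at 4117 and 4348 in active replicates 1 and 3 and at 3151 or 4845 in replicate 2, and at 3330, 3611 and 3763 in transplant libraries. Transplant libraries lay below sedentary ones without overlap, and active replicates 1 and 3 lay between the groups. The log2 fold change of transplant against sedentary was -0.43 (SE 0.11, 95% interval -0.71 to -0.16), with a limma adjusted p of 0.0616. edgeR gave 0.0214 and DESeq2 0.00334. Within replicate 3 alone the difference was -0.24. Active against sedentary it was -0.33 (SE 0.17, 95% interval -0.74 to 0.09), and -0.12 with the other column of replicate 2.

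Asxl1 was at 4773, 5647 and 6120 normalized counts in sedentary libraries and at 4438, 4707 and 4860 in transplant libraries. Active replicates 1 and 3 held 4768 and 6431, and replicate 2 held 4872 or 5518. The groups overlapped in every comparison, with log2 fold changes of -0.05 (95% interval -0.49 to 0.39) for active against sedentary and -0.23 (95% interval -0.56 to 0.09) for transplant against sedentary. Asxl1 and Dnmt3b lie 245 kb apart on the same strand of chromosome 2, and only Dnmt3b passed the test.

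Kdm6b was at 1310, 1696 and 1189 normalized counts in sedentary libraries and at 1218, 1097 and 1217 in transplant libraries. Active replicates 1 and 3 held 1630 and 1468, and replicate 2 held 1308 or 1445. Transplant libraries lay below active columns without overlap, with a log2 fold change of -0.37 (SE 0.11, 95% interval -0.64 to -0.09, limma adjusted p = 0.221). Transplant and sedentary libraries overlapped, at -0.23 (95% interval -0.63 to 0.17).

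Ratios of genes within a library do not depend on how libraries are scaled. Dnmt3b stood to Dnmt3a at a log2 ratio of reads of -0.10 ± 0.15 in sedentary and -1.42 ± 0.19 in transplant libraries (SD, n = 3 each), without overlap. Ezh2 stood to its paralog Ezh1 at 2.83 ± 0.09 in sedentary and 2.31 ± 0.05 in transplant libraries, also without overlap. Ezh1 itself, the methyltransferase that takes Ezh2's place in resting cells, was at 656 to 721 normalized counts in sedentary and 678 to 778 in transplant libraries.

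The ratio of Tet2 to Dnmt3a was -0.58, -0.40 and -0.23 in sedentary libraries. It was -0.0086 and -0.0038 in active replicates 1 and 3, 0.44 or -0.08 in replicate 2, and -0.05, -0.10 and 0.09 in transplant libraries. Every active and transplant column was above every sedentary library. This was the only ratio of the 7 that kept active and transplant libraries together and apart from sedentary ones with either column of replicate 2. Neither Tet2 nor Dnmt3a alone separated these groups on the common scale. How many other gene pairs separate groups was not computed, for this ratio or those above. The pattern is thus not read as particular to these genes. The exact 2-sided permutation test gave p = 0.1 for each ratio whose groups did not overlap, the smallest that 3 against 3 libraries can give. After Benjamini-Hochberg adjustment over 21 tests this was 0.233. The ratio of Dnmt1 to Dnmt3a overlapped between groups, at 2.90 ± 0.13 in sedentary and 2.83 ± 0.27 in transplant libraries.

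**Figure D3:**
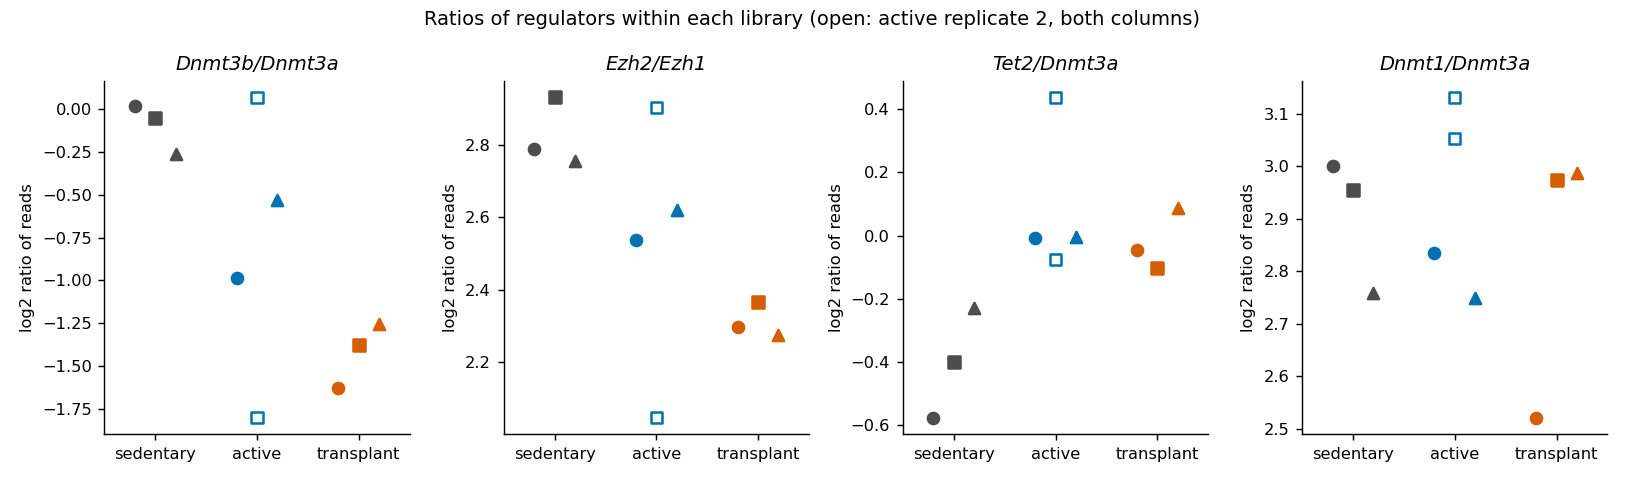
log2 ratio of reads between pairs of genes within each library (vertical axes, not from 0), by group; open squares are the 2 columns of active replicate 2. Dnmt3b to Dnmt3a falls from -0.10 in sedentary to -1.42 in transplant libraries on average, and Tet2 to Dnmt3a is above every sedentary library in all active and transplant columns.

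Of 70 tested genes in 5 lists of the same pathways, 6 passed between sedentary and transplant HSC (8.57%), beside 11.6% of all genes. Of 20 tested DNA methylation partners, 3 rose and 1 fell, with a list median log2 fold change of 0.09. Gadd45a, a stress gene with a proposed role in active demethylation, rose from 221, 250 and 231 to 536, 643 and 484 normalized counts (log2 fold change 1.23, SE 0.14, limma adjusted p = 0.0113). Its relative Gadd45b rose by 0.92 (SE 0.18, adjusted p = 0.0348) and Ahcy, which clears the product of methyl transfer, fell by 0.46 (SE 0.11, adjusted p = 0.0498). Of 20 PRC1 genes 2 fell: Cbx2, a reader of Polycomb-marked histones, from 870, 910 and 769 to 268, 289 and 414 normalized counts (log2 fold change -1.41, SE 0.19, adjusted p = 0.0159), and Pcgf6 with a log2 fold change of -0.82 (SE 0.13, adjusted p = 0.0216). Over 15 alternatives Gadd45a passed in 14, Cbx2 in 11, Pcgf6 in 10, Gadd45b in 7 and Ahcy in 5.

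No gene of 3 further pathway lists passed limma's test in that comparison. These were the 10 PRC2 partners, of which Jarid2 was at a log2 fold change of 0.67 (adjusted p = 0.0607) and Eed at -0.49 (adjusted p = 0.0744), the 12 H3K27 demethylase and COMPASS partners, with a median of -0.01, and the 8 Asxl and PR-DUB partners, with a median of -0.13. In the other comparisons no gene of these 5 lists passed the test. Over 23 genes of DNA replication and cell cycle, which include genes of mitosis as well as of S phase, none passed and the median was -0.24. Their summed level was 242770 to 249071 normalized counts in sedentary, 223153 to 247825 in active replicates 1 and 3, 198392 or 229775 in the columns of replicate 2, and 189387 to 231504 in transplant libraries. The part of this difference in the values of Uhrf1, Dnmt1 and Ezh2 was not tested.

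Markers of other blood cells moved with the fall of Dnmt3b. All 13 neutrophil and granule genes rose between sedentary and transplant HSC (median log2 fold change 3.25), and their summed level was 83342 to 120908 normalized counts in sedentary and 313163 to 401380 in transplant libraries. It was 148103 in active replicate 3 and 250359 in active replicate 1, and 440969 or 86833 in the columns of replicate 2. Among these active columns, each with a higher sum held less Dnmt3b and also less Ezh2. Over the 8 libraries other than active replicate 2, Pearson r with the sum was -0.96 for Dnmt3b and -0.92 for Ezh2. For the other regulators it lay between -0.73 (Uhrf1) and 0.30 (Tet2). Mature granule genes were present in transplant libraries, Ltf at 2453 to 3145 normalized counts, while Retnlg was at 1.6 to 7.3. Of 11 megakaryocyte and erythroid genes 5 rose, with summed levels of 2204 to 4182 in sedentary and 8661 to 24204 in transplant libraries. Of 9 lymphoid priming genes 5 fell, among them Flt3 at a log2 fold change of -4.18 (SE 0.42, limma adjusted p = 0.00903). Of 14 tested genes in the list of HSC markers, not all of them particular to HSC, 4 fell (Mecom, Hlf, Hoxa9 and Cd34) and Slamf1 rose. Of 4 tested B cell genes none passed, and of 2 T cell genes Lck fell. The part of these cells in the regulator values was not tested.

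**Figure D4:**
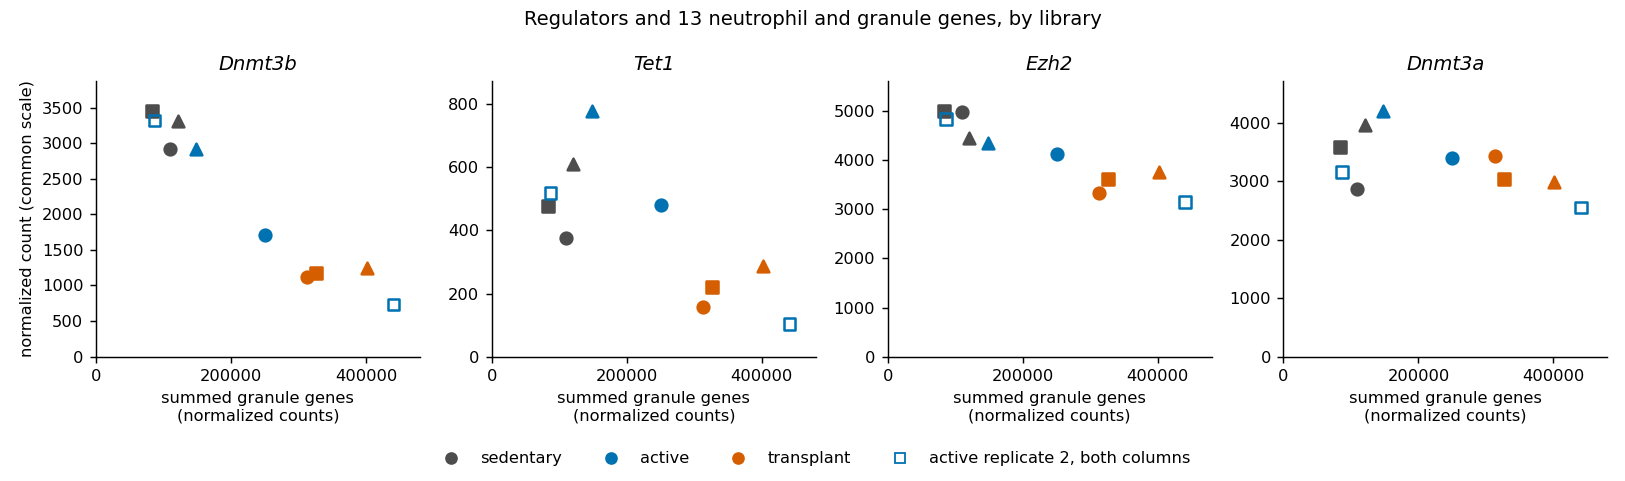
Normalized counts of 4 regulators (vertical axes) against the summed level of 13 neutrophil and granule genes (horizontal axis, normalized counts) in every HSC column. The 4 columns with the highest granule sums, from 313163 to 440969, hold the least Dnmt3b, from 731 to 1251. They also hold the least Ezh2, from 3151 to 3763, and the least Tet1, from 103 to 286. Their Dnmt3a values overlap those of the other columns.

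Over the 8 libraries other than active replicate 2, the genes most like Dnmt3a in log2 level were Dock2, Dot1l and Kremen1 (Pearson r = 0.98 each), among 10870 genes with a mean of at least 50 normalized counts. Those most like Dnmt1 were Espl1 (r = 0.98), Ddx46 (r = 0.97) and Ylpm1 (r = 0.97), and those most like Tet2 were Zfp292, Gsk3b and Baz2a (r = 0.98 each). Among the regulators themselves the most alike pair was Dnmt3b and Ezh2 (r = 0.93) and the least alike Tet2 and Ezh2 (r = -0.42). These values describe the 8 libraries, which share their groups and depth.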

How the data were processed

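RNA of sorted HSC was extracted with a column kit and made into libraries with a stranded mRNA kit, per the labels' protocols. The submitters' processing notes name the mouse build mm10, and the aligner, the counter and its strand setting are not given in the sources used here. The authors deposited a table per comparison with a normalized signal per gene and library, a log2 fold change, a linear fold ratio, a p-value, an adjusted p-value with its -log10, and a test statistic, which is a score. Every normalized value was a whole multiple of 1 step per library (100% within 0.02 reads), so whole reads were recovered.

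The genes tested had a mean of 1 or more normalized counts in at least 1 of the groups compared. The test was limma 3.58.1 in R 4.3.3 on log2(value + 1), which understates changes of low genes, with Benjamini-Hochberg adjustment at 0.05 over all genes of a table. Transplant and sedentary libraries stand in separate tables, and were joined on gene symbol as recovered reads scaled by the median of ratios. The same common scale gives the normalized counts per library. edgeR 4.0.16 and DESeq2 1.42.0 on recovered reads, TMM scaling, other filters and pseudocounts, a replicate block and leaving out each library were alternatives. Between transplant and active HSC, deviations of same-numbered libraries correlated at 0.10, 0.12 and 0.32 over genes, as seen in the data and not in the labels. Active replicate 1 and transplant replicate 2 also correlated at 0.10, so the numbers 1 and 2 did not mark pairs there. The replicate 3 libraries, whose names carry a letter, are the deeper set, and within-replicate values treat them apart. Only the limma fit was tested on simulated data, modelled on the reads of the sedentary and active libraries. The joined fit of transplant and sedentary libraries was not tested in this way. P-values measure the spread between libraries. Gene positions come from GENCODE on GRCm38, which is mm10, and promoters from RefSeq. Overlapping genes on the other strand are in a table for Tet3 and Asxl1, whose reads cannot be told apart from theirs if strand was ignored.

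The regulators and the gene lists were chosen with earlier results of these data known. Named were all regulators. Of each other list, the rule named the 2 genes of smallest p per direction among those past the threshold, or, where none passed, the largest rise and fall. Kit, Procr, Fgd5, Mpo, Ltf, Retnlg, Mecom and Hoxa9 were named outside that rule after their values were seen. Tumour libraries were not used here.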

Additional observations from a re-analysis of the deposited data

How the results depend on the processing

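Of the regulators, Dnmt3b between transplant and sedentary HSC passed the threshold in 14 of 15 alternatives, at log2 fold changes of -1.52 to -1.40. The exception was the replicate block (limma adjusted p = 0.0507). Deviations of same-numbered libraries correlated at -0.11, 0.16 and 0.05 in that comparison, and at 0.25, -0.03 and 0.17 between active and sedentary HSC. With the block 99 genes and 0 regulators passed between transplant and sedentary HSC, and 0 genes between transplant and active HSC, and it changed no other regulator's call. Regulators past the threshold between transplant and sedentary HSC numbered 2 at a mean of at least 10, 3 with edgeR, 4 with DESeq2, 4 with a mean-variance trend and 1 to 3 when a library was left out. Genes past it numbered 2569 with edgeR, 3187 with DESeq2, 2756 with the trend and 237 to 1674 when a library was left out. Between transplant and active HSC, regulators numbered 2 with DESeq2 and 0 to 1 when a library was left out. Genes there numbered 1 with edgeR, 1107 with DESeq2, 19 with the trend, 0 in replicates 1 and 2 only, 1 with the other column of active replicate 2 and 0 to 79 when a library was left out. Between active and sedentary HSC 1 gene passed with a pseudocount of 0.1 and 257 with DESeq2. The causes were not tested.

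The signs of some estimates turned, that of Tet1 from -0.50. Between active and sedentary HSC the other column of replicate 2 gave 0.023 for Dnmt1, 0.049 for Dnmt3a, 0.28 for Tet1 and 0.013 for Asxl1, and replicates 1 and 2 only gave -0.028 for Kdm6b. When a library was left out, ranges there were -0.14 to 0.020 for Dnmt1, -0.22 to 0.13 for Dnmt3a, -1.09 to 0.35 for Tet1, -0.18 to 0.029 for Asxl1 and -0.030 to 0.23 for Kdm6b. Between transplant and active HSC the other column gave -0.11 for Mbd5, and ranges were -0.090 to 0.33 for Dpy30 and -0.033 to 0.16 for Mbd5. Between transplant and sedentary HSC replicates 1 and 2 only gave 0.0097 for Dnmt3a and 0.058 for Tet3, and ranges were -0.27 to 0.028 for Tet3 and -0.16 to 0.28 for Kmt2c. With 3 libraries per group, wide intervals limit Dnmt3b and Tet1 in active mice, and Tet1 also rests on the fewest reads.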

Other observations

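Genes whose log2 level over the 8 libraries other than active replicate 2 was most like that of Dnmt3b were Dcakd (Pearson r = 0.99), Bcl2 (r = 0.99), which blocks apoptosis, and Fmnl1 (r = 0.99). Those most like Tet1 were Ncapd2 (r = 0.99), a condensin subunit, Acvr2a (r = 0.98) and Ddi2 (r = 0.98). Both were looked up after the values of Dnmt3b and Tet1 were seen, and the 8 libraries differ by group.

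Idh1, an enzyme that makes the cofactor that Tet enzymes need, was at 2378, 2174 and 4561 normalized counts in sedentary libraries and at 14081, 9354 and 4882 in transplant libraries. The groups did not overlap, but transplant replicate 3 was close to sedentary replicate 3. Of 13348 genes tested between these groups, 2716 were higher in transplant libraries without overlap. The test of Idh1 in that comparison is not given here. Active replicates 1 and 3 held 5653 and 3685, and the columns of replicate 2 held 11333 in the sedentary table and 4086 in the transplant table. Between active and sedentary HSC its log2 fold change was 1.11 (SE 0.50, limma adjusted p = 0.475), and between transplant and active HSC it was 0.97 (SE 0.41, adjusted p = 0.298).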
